A study of Mus musculus with 12 samples.

Results

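Myb-binding protein 1a (Mybbp1a) and 40 further genes of the nucleolus, of ribosome biogenesis and of RNA polymerase I were examined in a mouse model of oral squamous cell carcinoma. The 41 genes were taken by name, and every probe that the array's annotation assigns to one of them was read on all 12 arrays. The annotation named 39 of the 41 with 77 probes, among 19031 named genes and 45135 probes in all. Fbl (fibrillarin, the 2'-O-methyltransferase of rRNA) and Ddx18 (a nucleolar RNA helicase) had no probe by name. A probe was kept if it was brighter than 99% of the negative controls on at least 2 of the 12 arrays, which left 53 probes for 31 of the 41 genes, against 18454 probes for 10346 genes over the whole array. Each gene was read from the brightest of its kept probes, unless a probe is named.

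The arrays held RNA from 5 recurrent tumors, from the 5 primary tumors of the same animals and from 2 samples of SCC-7 cells, a murine squamous carcinoma line. All tumors grew from SCC-7 cells placed in the floor of the mouth of BALB/c-nu mice, a strain without a thymus, and a recurrence was tissue that had regrown after surgical removal of the primary. A tumor sample was whole tissue, in which fewer cells of a type and less RNA per cell cannot be told apart, whereas SCC-7 cells were in culture. The age of the animals and whether the SCC-7 samples came from separate cultures were not given in the sources used here, so the spread between these samples may be technical. Levels are log2 normalized intensities unless a sum is named, and a fold is between groups for 1 probe, since probes differ in how brightly they report.

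In the nucleolus, RNA polymerase I copies the ribosomal DNA, small nucleolar RNPs guide the chemical marking of the transcript, and large assemblies fold and cut it into the rRNAs of the small and large ribosomal subunits. Mybbp1a is an abundant nucleolar protein that binds the Myb oncoprotein and p53 and takes part in rRNA transcription and processing. Myc drives many genes of this pathway, and in tumors the demand for ribosomes goes with growth.

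Between 15043 and 17083 probes were detected on a tumor array and 13711 and 13868 on the SCC-7 arrays. Primary tumor 3 stood apart. The summed linear intensity of 9 T and NK cell markers was 10288 there and 635 to 1801 in the other tumors, and that of 12 endothelial markers was 11409 against 3598 to 5718. Primary tumors 1 and 3 had the lowest sums of 12 macrophage markers, 30063 and 28464, with 51571 to 60634 in the other tumors and 1742 to 1760 in SCC-7 cells. They also had the lowest sums of 21 cell cycle genes, 14400 and 13918, with 24409 to 35031 in the other tumors and 9082 to 9157 in SCC-7 cells. All 12 macrophage markers with a kept probe were higher in both tumor groups than in SCC-7 cells. The same held for 10 of 12 endothelial markers (1 was lower) and 4 of 10 fibroblast markers. Salivary gland markers summed to 1330 to 129458 in recurrent tumors, 19726 to 195475 in primary tumors and 14177 to 14241 in SCC-7 cells. Of 13 squamous carcinoma markers with a named probe, 7 were not detected on either SCC-7 array. Of these, Krt5 and Cdh1 were detected on some tumor array, while Krt6a, Krt6b, Epcam, Perp and Sfn were not detected in any tumor either. The part of these differences in the results that follow was not tested.

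Mybbp1a lies on chromosome 11 at 72441327 to 72451770 (GRCm38.p6) and had 5 probes, whose positions in the transcript were not given in the sources used here. ILMN_1251458 was detected on 0 of 12 arrays. ILMN_1255110, ILMN_1230169 and ILMN_1216204 were detected on all 12. ILMN_2987339, the brightest, was detected on 11 and missed only primary tumor 3. The promoter of Mybbp1a holds a CACGTG hexamer, the E-box to which Myc and Max bind, and the members with this hexamer are shown because Myc is the regulator named among the 41 genes. The window read was 250 bases before to 50 bases after the annotated start, and the hexamer reads the same on both strands. It occurred in 6 of the 34 member genes with a promoter in the RefSeq table (17.6%), in 8.09% of all 27025 genes there, and in 11.7% of those with a kept probe. A match is a run of letters and not a binding site. The capitals mark the hexamer in each 30-base window, 5′ to 3′ on the gene's strand in GRCm38.p6.
Mybbp1a, chr11:72441347-72441376, plus strand, from base 41 after the start: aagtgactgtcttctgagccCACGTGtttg
Pes1, chr11:3963965-3963994, plus strand, from base 3 after the start: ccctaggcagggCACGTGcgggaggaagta
Wdr43, chr17:71616220-71616249, plus strand, from base 18 after the start: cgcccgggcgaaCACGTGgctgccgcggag
Nop2, chr6:125131811-125131840, plus strand, from base 60 before the start: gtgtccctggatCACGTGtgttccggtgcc
Rrn3, chr16:13780639-13780668, plus strand, from base 48 before the start: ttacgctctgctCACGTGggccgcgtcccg
Rrn3 held a further copy from base 215 before its start, and Utp20, which no array detected, held 1 as well.

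Mybbp1a was lower in both tumor groups than in SCC-7 cells by 3 of its 4 kept probes, by about 2-fold, while its brightest probe varied so widely between tumors that no difference was called. ILMN_1255110 read 7.80, 7.54, 7.47, 7.81 and 7.90 in recurrent tumors 1 to 5, 7.23, 7.60, 7.30, 7.63 and 7.73 in primary tumors 1 to 5, and 8.67 and 8.70 in SCC-7 cells. Every tumor lay below both SCC-7 samples, and the tumor groups overlapped. The difference was -0.98 ± 0.20 in recurrent tumors against SCC-7 cells (standard error; limma, adjusted p = 0.00601) and -1.19 ± 0.20 in primary tumors against SCC-7 cells (adjusted p = 0.00192), or 1.98-fold and 2.28-fold lower. ILMN_1230169 differed by -0.87 ± 0.27 in recurrent tumors (adjusted p = 0.0424) and by -1.03 ± 0.27 in primary tumors (adjusted p = 0.0217). ILMN_1216204 differed by -1.08 ± 0.32 (adjusted p = 0.0377) and -1.32 ± 0.32 (adjusted p = 0.017) in recurrent and primary tumors. The probes thus lay close together in size, and all 10 tumors were below both SCC-7 samples on each.

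The brightest probe behaved otherwise. ILMN_2987339 read 10.67, 7.50, 8.62, 7.80 and 6.45 in recurrent tumors 1 to 5, 5.53, 9.96, 5.00, 9.45 and 9.14 in primary tumors 1 to 5, and 10.90 and 11.05 in SCC-7 cells. Recurrent tumor 1 was close to the cultured cells, whereas in primary tumor 3 it was not above background and in primary tumor 1 it was just above. Its SD over the 10 tumors was 1.90, wider than that of 98.7% of all kept probes, while the next widest member probe, ILMN_1230063 of Gar1, had 0.59. The other Mybbp1a probes had SDs of 0.22, 0.32 and 0.41, against a median of 0.38 over all genes. The mean differences from SCC-7 cells, -2.76 ± 1.39 in recurrent and -3.16 ± 1.39 in primary tumors, were the largest of any member probe but were not called (limma, adjusted p = 0.192 and adjusted p = 0.133).

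**Figure D1:**
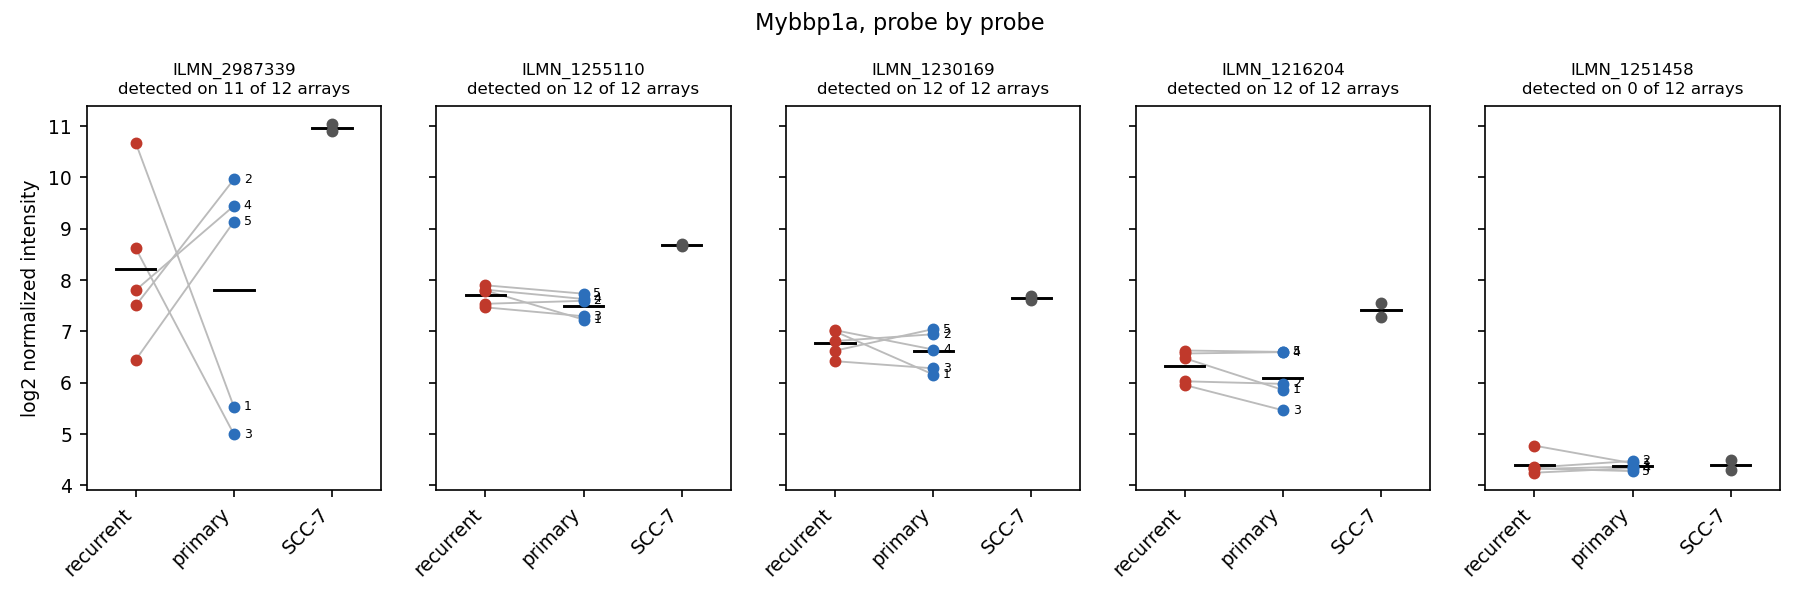
Log2 normalized intensity of each Mybbp1a probe (points, 1 per array; black bars, group means; grey lines join the tumors of 1 animal, numbered at the primary tumor). The brightest probe spanned 5.00 to 10.67 over the tumors, while on the next 3 all tumors lay below both SCC-7 samples.

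To set the probes of the gene against each other, the mean of the other 3 kept probes was subtracted from ILMN_2987339 on each array. The difference was 3.58, 0.71, 2.00, 0.67 and -0.60 in recurrent tumors 1 to 5, -0.89, 3.12, -1.35, 2.49 and 2.01 in primary tumors 1 to 5, and 2.93 and 3.18 in SCC-7 cells. Since probes differ in how brightly they report, only its change between arrays can be read. It was highest in recurrent tumor 1 and lowest in primary tumor 3, where the brightest probe was not above background, and the groups overlapped. The mean was 1.27 ± 1.59 in recurrent tumors (SD, n = 5), 1.08 ± 2.05 in primary tumors (SD, n = 5) and 3.06 ± 0.18 in SCC-7 cells (SD, n = 2). Recurrent minus primary tumors came to 0.20, with an exact two-sided sign-flip p = 0.875 where 5 pairs allow no value under 0.0625. Tumors minus SCC-7 cells came to -1.88, with an exact two-sided permutation p = 0.182 over 66 regroupings.

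Across the 10 tumors, which came from 5 animals and so are not fully independent, 3 of the 6 pairs of Mybbp1a probes passed the adjustment, 2 of them between dimmer probes. ILMN_1255110 and ILMN_1216204 had r = 0.88 (permutation p = 0.00054, adjusted p = 0.00324 over 6 probe pairs) and rho = 0.88 (adjusted p = 0.0093), and r = 0.83 without the 2 tumors farthest from the median. ILMN_1255110 and ILMN_1230169 had r = 0.78 (permutation, adjusted p = 0.0237) and rho = 0.67 (adjusted p = 0.0973), and ILMN_1230169 and ILMN_1216204 had r = 0.65 (adjusted p = 0.069) and rho = 0.60 (adjusted p = 0.111). ILMN_2987339 had r = 0.73 with ILMN_1230169 (permutation, adjusted p = 0.0396; rho = 0.65, adjusted p = 0.0973), which dropped to 0.35 without the 2 farthest tumors, here primary tumors 1 and 3. With ILMN_1255110 and ILMN_1216204 it had r = 0.52 and 0.51 (permutation, adjusted p = 0.133 for both; rho = 0.39 and 0.35), and -0.21 and -0.11 without those tumors. The other pairs of dimmer probes dropped as well without the 2 farthest tumors, to 0.42 for ILMN_1255110 with ILMN_1230169 and to 0.29 for ILMN_1230169 with ILMN_1216204. Primary tumors 1 and 3 also had the low macrophage and cell cycle sums given above, whose part was not tested.

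Set against SCC-7 cells, 1 member was higher and 5 were lower in recurrent tumors, and 1 was higher and 4 were lower in primary tumors, at an adjusted p under 0.05 (limma) over all 18454 kept probes. Of all genes read by the brightest kept probe, 9.8% were called higher and 9.22% lower in recurrent tumors, and 9.41% and 9.31% in primary tumors. The members' shares were 3.23% higher and 16.1% lower in recurrent tumors and 3.23% higher and 12.9% lower in primary tumors. Their median difference was -0.20 in recurrent and -0.29 in primary tumors, and that of all genes -0.07 and -0.09. Both comparisons used the same 2 SCC-7 arrays. Counted by probe, 2 of 53 had a call upward and 12 downward in recurrent tumors (8.18% and 9.68% of all kept probes), and 2 upward and 10 downward in primary tumors (7.65% and 9.95%). These counts include ILMN_2620069 of Polr1a upward and ILMN_1237531 of Nob1 downward, each detected only in the samples where it was high.

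Among the RNA polymerase I genes, 2 of 8 fell in each tumor group. Polr1a, the largest subunit, read 9.98, 9.82, 9.69, 9.90 and 9.69 in recurrent tumors, 9.50, 10.07, 10.12, 10.11 and 10.35 in primary tumors, and 10.79 and 10.89 in SCC-7 cells on ILMN_2700107. All tumors were below the cultured cells, by -1.03 ± 0.22 in recurrent tumors (limma, adjusted p = 0.00793) and -0.81 ± 0.22 in primary tumors (adjusted p = 0.0246). A further probe, ILMN_2836664, gave -1.12 ± 0.26 and -0.91 ± 0.26 for these comparisons (adjusted p = 0.0141 and adjusted p = 0.0344). Its dimmest kept probe, ILMN_2620069, ran the other way. It averaged 5.49 ± 0.15 in recurrent tumors (SD, n = 5), 5.64 ± 0.41 in primary tumors (SD, n = 5) and 4.47 ± 0.01 in SCC-7 cells (SD, n = 2), and was not above background on either SCC-7 array. It passed the filter only through the tumors, where it was higher, so its upward calls in both tumor groups are not read as support. No fold is given for it, since its tumor means lay under the lowest detected signal of the SCC-7 arrays. Polr1a was thus called lower by its brighter kept probes, ILMN_2700107 and ILMN_2836664, and the dimmest gave no usable comparison.

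Polr1c, a subunit shared with RNA polymerase III, fell by 0.86 on the log2 scale in recurrent tumors and by 0.88 in primary tumors (standard error 0.23 in each; limma, adjusted p = 0.023 and adjusted p = 0.0217). It read 8.92, 8.77, 8.35, 9.01 and 8.79 in recurrent tumors, 8.46, 8.74, 8.52, 8.92 and 9.10 in primary tumors, and 9.59 and 9.66 in SCC-7 cells, so that no tumor reached the cultured cells. Polr1b, the second largest subunit, read 6.77 to 7.44 in recurrent tumors (median 7.16), 6.87 to 7.67 in primary tumors (median 7.27), and 7.81 and 7.87 in SCC-7 cells. All tumors were below SCC-7 cells, but the differences of -0.69 ± 0.25 and -0.52 ± 0.25 in recurrent and primary tumors were not called (limma, adjusted p = 0.0719 and adjusted p = 0.159). Polr1e, a subunit that helps to start transcription, differed by -0.11 and -0.17 in these comparisons and was not called.

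The initiation factors had no call by their brightest probes. Ubtf (UBF), which binds the ribosomal DNA, differed by -0.56 ± 0.19 in recurrent tumors (limma, adjusted p = 0.0614) and -0.22 ± 0.19 in primary tumors (adjusted p = 0.431) on ILMN_1255927. On its dimmer probe ILMN_1235921 it read 8.65, 7.89, 8.34, 8.55 and 8.59 in recurrent tumors, 8.87, 8.68, 8.87, 8.52 and 8.39 in primary tumors, and 9.26 in both SCC-7 samples. That probe was called lower in recurrent tumors (-0.86 ± 0.23, limma, adjusted p = 0.0241), and its value in primary tumors was -0.60 ± 0.23 (adjusted p = 0.0899). Taf1d, a subunit of the SL1 selectivity factor, differed by 0.72 ± 0.24 in recurrent tumors (adjusted p = 0.0584) and by 0.04 ± 0.24 in primary tumors (adjusted p = 0.921). Rrn3 (TIF-IA), which ties the polymerase to growth signals, and Tcof1 (treacle) were not called, with differences of -0.33 and -0.04 in recurrent tumors and -0.39 and 0.46 in primary tumors.

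Of the small nucleolar RNP proteins, Nop58 rose in both tumor groups. This core protein of the box C/D particles, which direct 2'-O-methylation, read 9.13, 9.70, 9.83, 9.87 and 10.14 in recurrent tumors, 8.93, 9.29, 9.75, 9.79 and 9.82 in primary tumors, and 8.44 and 8.51 in SCC-7 cells. Every tumor was above the cultured cells, by 1.26 ± 0.30 or 2.4-fold in recurrent tumors (limma, adjusted p = 0.014) and by 1.04 ± 0.30 or 2.06-fold in primary tumors (adjusted p = 0.0323). Its partner Nop56 differed by -0.20 ± 0.28 in recurrent and -0.42 ± 0.28 in primary tumors and was not called. Rrp9, which binds the U3 snoRNA, was not called either, at -0.36 and -0.32. Gar1 and Nhp2, core proteins of the box H/ACA particles that direct pseudouridylation, differed by -0.12 and -0.30 in recurrent and -0.05 and -0.37 in primary tumors without a call. Nop58 was thus the one gene called among the 5 of these particles with a kept probe.

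For the small subunit, 2 of 8 genes with a kept probe fell in each tumor group. Nat10, the acetyltransferase of 18S rRNA, read 4.93, 5.31, 5.40, 5.51 and 5.57 in recurrent tumors, 5.61, 5.55, 5.57, 5.14 and 5.55 in primary tumors, and 6.45 and 6.26 in SCC-7 cells. It was detected in 4 of 5 tumors of each group and differed from SCC-7 cells by -1.01 ± 0.21 in recurrent tumors (limma, adjusted p = 0.00729) and by -0.87 ± 0.21 in primary tumors (adjusted p = 0.0161). Nop14, a factor of the early processing complex, averaged 6.76 ± 0.17 in recurrent tumors, 6.77 ± 0.09 in primary tumors (SD, n = 5 each) and 7.37 ± 0.02 in SCC-7 cells (SD, n = 2). The differences of -0.61 ± 0.16 and -0.60 ± 0.16 were called (limma, adjusted p = 0.0259 and adjusted p = 0.0277), and all tumors were below both SCC-7 samples.

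Nob1, the endonuclease that forms the end of 18S rRNA, was read by 3 probes. The dimmest, ILMN_1237531, was detected on both SCC-7 arrays (6.34 and 6.24) and on 0 of 10 tumor arrays. Its level was at least 2.08-fold lower in recurrent and at least 2.05-fold lower in primary tumors, each bound taken against the lowest detected signal of the tumor arrays. The probe passed the filter only through the SCC-7 arrays, where it was high. The calls of this probe are therefore not read as support for lower Nob1. Its brighter probes ILMN_2965991 and ILMN_2755782 gave -0.57 ± 0.35 and -0.60 ± 0.35 in recurrent tumors and -0.92 ± 0.35 and -1.0 ± 0.35 in primary tumors, without a call (adjusted p between 0.069 and 0.28). Primary tumor 3 read lowest of all tumors on both, at 8.51 and 7.63. Wdr43, Wdr75 and Heatr1 of the subcomplex that links transcription to processing, Rrp12 and the helicase Ddx10 were not called, with differences from -0.27 to 0.05 in recurrent and from -0.41 to 0.08 in primary tumors.

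For the large subunit, 1 of 5 genes fell in recurrent tumors and none of the 5 was called in primary tumors. Pes1 (pescadillo), which forms the PeBoW complex with Bop1 and Wdr12, read 8.04, 7.12, 7.79, 7.92 and 8.05 in recurrent tumors, 7.69, 8.11, 7.88, 8.25 and 8.11 in primary tumors, and 8.64 and 8.65 in SCC-7 cells. The difference was -0.86 ± 0.26 in recurrent tumors (limma, adjusted p = 0.0384) and -0.64 ± 0.26 in primary tumors (adjusted p = 0.102). Between recurrent and primary tumors the difference was -0.22 ± 0.21 (limma with the animal as a block, adjusted p = 0.933). Bop1 differed by -0.11 and -0.17 on its brighter probe, with no call. Its dimmer probe ILMN_1258723 was called, at -0.80 ± 0.23 in recurrent and -0.86 ± 0.23 in primary tumors (limma, adjusted p = 0.0339 and adjusted p = 0.025). That probe was detected in 4 of 5 tumors of each group and not above background in recurrent tumor 3 and primary tumor 3. Nop2, a methyltransferase of 28S rRNA, Rrp1b and the GTPase Gnl3 (nucleostemin) were not called, at -0.50, 0.20 and -0.14 in recurrent tumors and -0.43, 0.12 and -0.06 in primary tumors.

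The abundant nucleolar proteins were not called, and 2 of the 3 had positive differences in both tumor groups. Npm1 (nucleophosmin), a histone and ribosomal protein chaperone, read 12.34, 12.87, 12.88, 12.77 and 12.67 in recurrent tumors, 12.31, 12.29, 13.31, 12.50 and 12.57 in primary tumors, and 11.84 and 12.01 in SCC-7 cells. All tumors were above the cultured cells, and the differences were 0.78 ± 0.27 in recurrent (limma, adjusted p = 0.0654) and 0.67 ± 0.27 in primary tumors (adjusted p = 0.103). Ncl (nucleolin), which binds rRNA precursors, read 8.08 to 9.34 in recurrent tumors (median 8.72), 8.11 to 9.24 in primary tumors (median 9.05), and 8.39 and 8.31 in SCC-7 cells. Its groups overlapped, and the differences were 0.33 ± 0.37 and 0.50 ± 0.37 (adjusted p = 0.562 and adjusted p = 0.356). The helicase Ddx21 differed by -0.12 in recurrent and 0.04 in primary tumors.

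Myc read 6.06, 6.71, 5.95, 6.75 and 7.04 in recurrent tumors, 5.98, 6.74, 5.53, 6.67 and 7.08 in primary tumors, and 7.68 and 7.50 in SCC-7 cells. All tumors were below SCC-7 cells, by -1.09 ± 0.41 in recurrent and -1.19 ± 0.41 in primary tumors, which was not called (limma, adjusted p = 0.0874 and adjusted p = 0.0651). The tumors of an animal lay within 0.08 of each other in 4 of 5 animals, and animal 3 differed by 0.43.

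**Figure D2:**
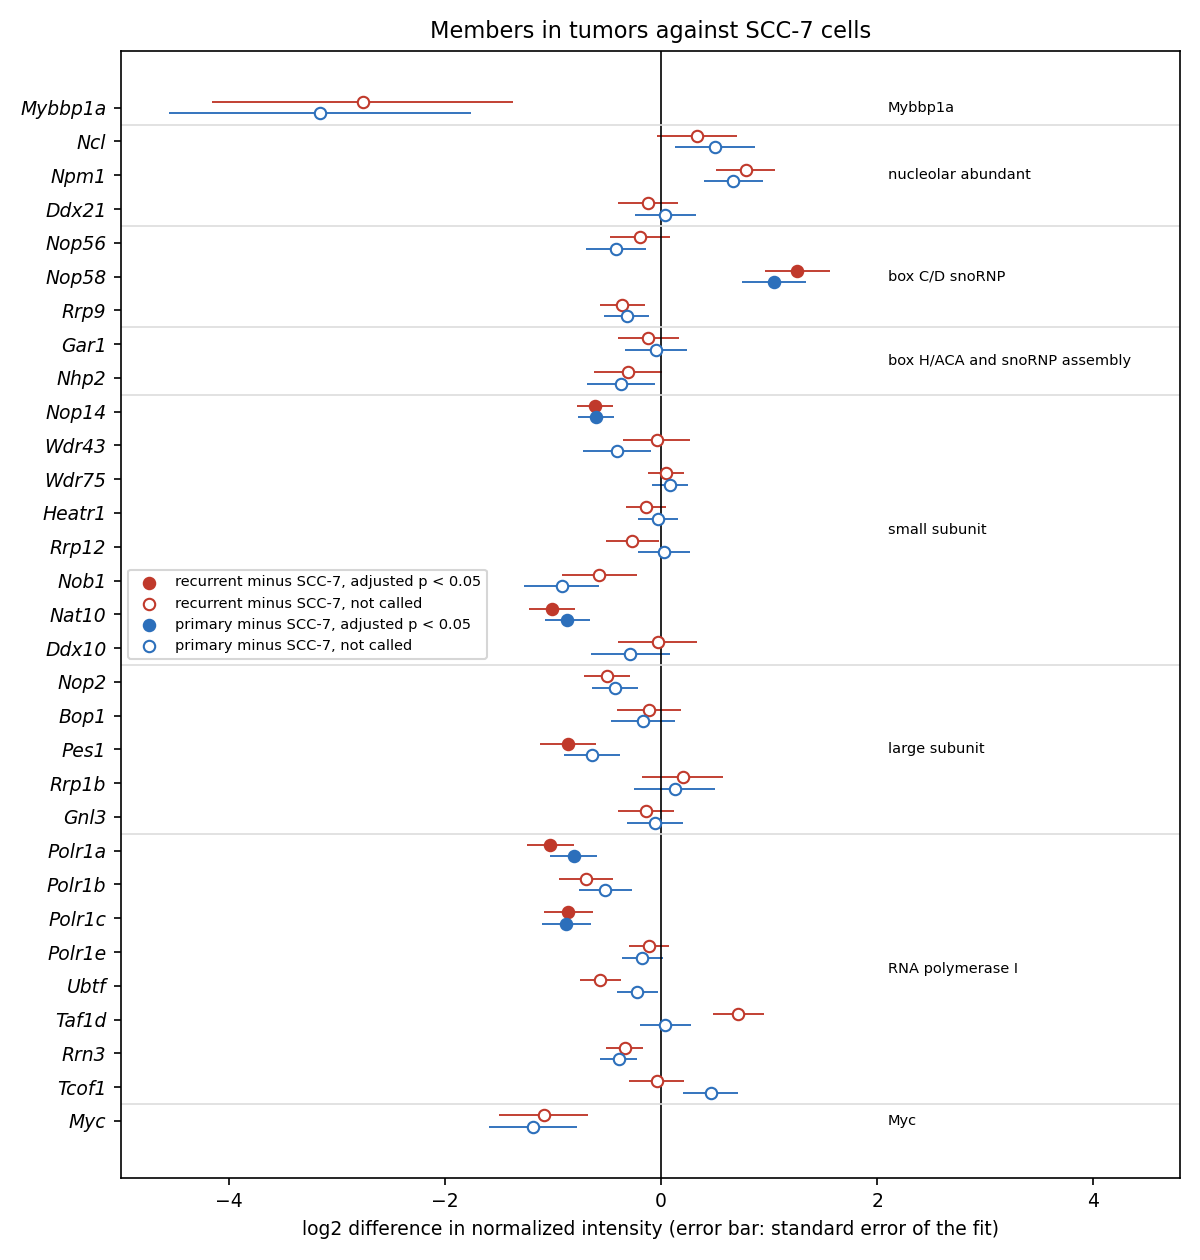
Log2 difference of each member from SCC-7 cells in recurrent and primary tumors (points; bars, standard errors of the fit; filled, adjusted p under 0.05), by the brightest kept probe and grouped by role. Nop58 was called at 1.26 and 1.04, and the other calls lay between -1.03 and -0.60.

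The calls against SCC-7 cells depended on having both SCC-7 arrays, while the differences of the called member probes kept their direction without either one. When either one was left out, none of the 31 members was called by its brightest probe, while over all probes the calls dropped to 564 higher and 215 lower or 565 and 220 in recurrent tumors, in place of 1510 and 1786, and to 534 and 257 or 534 and 258 in primary tumors, in place of 1412 and 1837. Of 14 called member probes in recurrent tumors, 1 remained without either array, the dim Nob1 probe ILMN_1237531 (limma, adjusted p of at most 0.0196). Of 12 in primary tumors, 2 remained, the same Nob1 probe (adjusted p of at most 0.0263) and ILMN_1255110 of Mybbp1a (adjusted p of at most 0.0387). Scaling each array by its median instead of quantile normalization raised the median difference of all probes to 0.13 in recurrent and 0.08 in primary tumors, in place of -0.11 and -0.15. Under this scaling 1601 probes had a call upward and 366 downward in recurrent tumors, and 1470 and 430 in primary tumors. No member was then called lower by its brightest probe, and the members' medians were -0.06 and -0.02. The member probes that kept their calls were Nop58 in recurrent tumors and ILMN_1255110 of Mybbp1a in primary tumors. So did ILMN_1237531 of Nob1 and ILMN_2620069 of Polr1a in both tumor groups, each detected only where it was high and so not read as support.

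The genes that did not reach a kept probe were Nolc1, Dkc1, Utp14a, Utp20, Bysl, Nop16, Wdr12 and Rrs1, of which Dkc1 (dyskerin, the pseudouridine synthase) had 2 probes and the others 1. None was detected on any of the 12 arrays, which sets no lower bound on the transcript, since a probe can fail to report.

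Among 131 further genes of ribosome biogenesis with a kept probe, recurrent tumors had 4 higher and 15 lower, and primary tumors 0 higher and 14 lower, each against SCC-7 cells, with median differences of -0.26 and -0.23. Of these genes 11.5% were thus lower in recurrent and 10.7% in primary tumors, beside 9.22% and 9.31% of all genes. The shares called higher were 3.05% and 0%, beside 9.8% and 9.41% of all genes. Of 38 small subunit factors, 5 fell in primary tumors, led by Rps19bp1 at -1.13, Pdcd11 at -0.98 and Aatf at -0.86. Of 51 large subunit factors, 6 fell, led by Nle1 at -1.0, Eif6 at -0.99 and Rrp1 at -0.86, the last detected in 1 of 5 primary tumors. Polr3a, the largest subunit of RNA polymerase III, fell by 0.81 among 19 genes of polymerases I and III, and Zfp593, detected in 1 of 5 primary tumors, by 0.88 among 12 snoRNP factors. Of 11 exosome genes, which degrade RNA from the 3′ end, Exosc4 fell by 0.73 in primary tumors, while Mphosph6 and Exosc8 rose by 1.05 and 0.76 in recurrent tumors. All 14 calls of these lists in primary tumors were thus downward.

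Other genes tied to Mybbp1a and Myc moved in both directions. Of 7 reported partners of Mybbp1a with a kept probe, Dek, a chromatin protein, rose by 1.29 in recurrent and 1.19 in primary tumors (limma, adjusted p = 0.00199 and adjusted p = 0.00323). Aurkb, a mitotic kinase, rose by 1.78 in recurrent tumors (adjusted p = 0.0279), and its value in primary tumors was 1.45 (adjusted p = 0.0598). Of 18 genes of the Myc network, Mnt, a repressor that shares Max with Myc, was the one called (detected in 2 of 5 tumors of each group), at -1.45 in recurrent and -1.55 in primary tumors (adjusted p = 0.00718 and adjusted p = 0.00503). Of 21 cell cycle genes, 16 rose in recurrent and 8 in primary tumors and none fell, beside 9.8% and 9.41% of all genes called higher. Among them Mcm5 rose by 1.91 and Bub1b by 1.72 in primary tumors. Kif11, also called, and Pcna were not above background on either SCC-7 array and passed the filter only through the tumors. The counts take in Kif11, whose call is not read as support.

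Between recurrent and primary tumors, no member and none of the 18454 kept probes was called (limma with the animal as a block, 0 of all genes). At an unadjusted p under 0.05, 1 member was higher and 1 lower in recurrent tumors, beside 2.51% and 0.754% of all genes. The median of the members was -0.01 and that of all genes 0.02. Each recurrence was paired with the primary tumor of the same number, since the study compared tumor pairs.

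The brightest Mybbp1a probe moved in opposite directions in different animals. Recurrent minus primary tumors gave 5.14 and 3.62 in animals 1 and 3, and -2.46, -1.64 and -2.69 in animals 2, 4 and 5. The value of animal 3 is a difference against a level that was not above background in primary tumor 3. Its mean of 0.39 ± 1.28 was far smaller than this spread (limma, adjusted p = 0.975; exact two-sided sign-flip p = 0.875). It was the one member with at least a 2-fold change in at least 3 pairs, in the lower direction, a pattern that 0.358% of all genes shared. The other Mybbp1a probes did not follow it. ILMN_1255110 gave 0.57, -0.06, 0.17, 0.18 and 0.16 in animals 1 to 5, ILMN_1216204 gave 0.62, 0.05, 0.49, -0.03 and 0.03, and ILMN_1230169 gave 0.84, -0.13, 0.14, 0.38 and -0.42. Their means were 0.21 ± 0.15, 0.23 ± 0.17 and 0.16 ± 0.21 (exact two-sided sign-flip p = 0.125, p = 0.125 and p = 0.5625), none of them called.

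The remaining members varied far less between the tumors of an animal. Taf1d had the largest positive value, 0.68 ± 0.19, with ratios of 0.38, 1.23, 0.40, 0.93 and 0.45 in animals 1 to 5 (limma, adjusted p = 0.933). Its levels were 6.88, 7.80, 7.23, 7.44 and 7.43 in recurrent tumors and 6.50, 6.57, 6.84, 6.52 and 6.98 in primary tumors, which overlapped through recurrent tumor 1 and primary tumor 5. Its other probe ILMN_3136867 gave 0.47 ± 0.21 and was higher in 4 of 5 pairs.

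Tcof1 had the largest negative value, -0.50 ± 0.18, with 7.65, 6.98, 7.67, 7.34 and 7.12 in recurrent tumors and 7.61, 7.76, 8.36, 7.65 and 7.87 in primary tumors (adjusted p = 0.933). Recurrent tumor 1 alone was not below its primary. Ubtf and Rrp12 had -0.34 ± 0.17 and -0.29 ± 0.17 and were lower in all 5 pairs. Wdr43 and Nob1 had 0.37 ± 0.19 and 0.35 ± 0.19, and Wdr43, Nop58 and Taf1d were higher in all 5 pairs. None of these was called, and all had an adjusted p of 0.933.

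**Figure D3:**
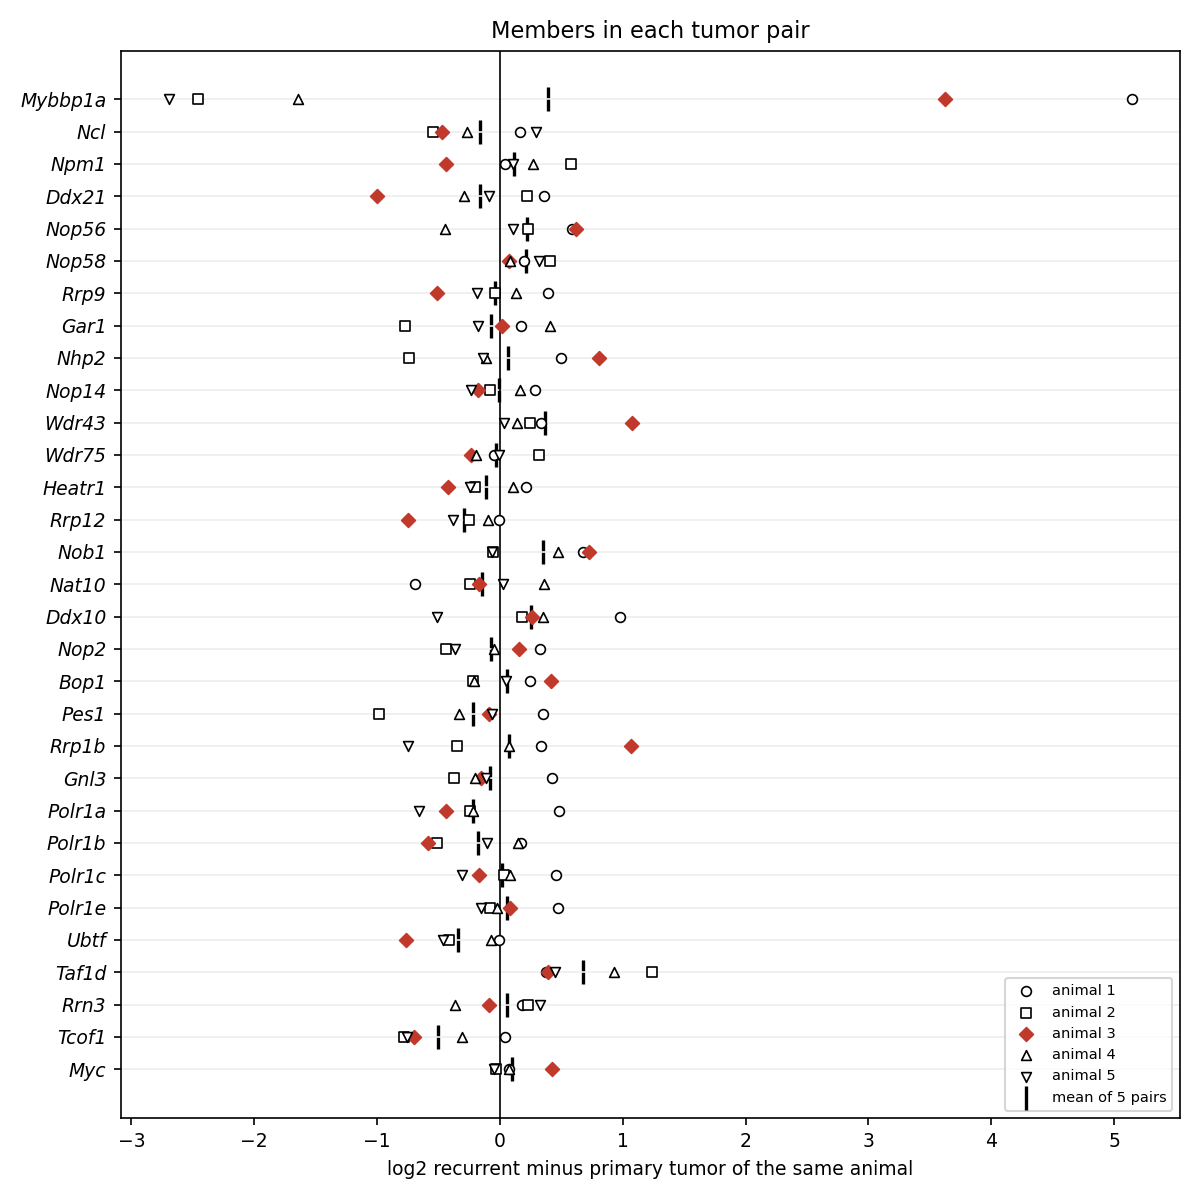
Log2 ratio of recurrent to primary tumor for each member in each of 5 animals (symbols; red, animal 3) with the mean of the pairs (vertical ticks), by the brightest kept probe. Mybbp1a ran from -2.69 to 5.14, while all other members stayed between -1.0 and 1.23.

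The balance of the members differed between animals. In animal 1, 27 of 31 members were higher in the recurrent tumor, with a median ratio of 0.33 against 0.19 over all genes, where 63.1% were higher. In animals 2 and 5, 10 and 9 members were higher, with medians of -0.20 and -0.11 against 0.02 and -0.03 over all genes, of which 51.9% and 46.2% were higher. Animals 3 and 4 had 14 and 15 members higher, where 56.4% and 50.8% of all genes were. Among the 10 tumors, primary tumor 1 had the lowest level of 8 members (25.8%, against 15.4% of all genes) and primary tumor 5 the highest of 10 (32.3%, against 8.27%). Primary tumor 3 had the lowest level of 9 (29%, against 31%) and the highest of 6 (19.4%, against 21.3%).

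Each Mybbp1a probe was then set against the 30 other members across the 10 tumors, in 120 comparisons. The median r was 0.27 for ILMN_2987339, 0.44 for ILMN_1255110, 0.42 for ILMN_1230169 and 0.33 for ILMN_1216204, where the medians over all genes were 0.15, 0.15, 0.17 and 0.15. After adjustment over the 120 pairs, 2 passed. Nob1 followed ILMN_1255110 with r = 0.86 (permutation, adjusted p = 0.0498; rho = 0.78), and Bop1 followed ILMN_1216204 with r = 0.89 (adjusted p = 0.0498; rho = 0.92). The rank correlations of both pairs did not pass (adjusted p = 0.133 and adjusted p = 0.0648 by permutation). Without the 2 farthest tumors r was 0.73 and 0.78. No member passed with the brightest probe, for which 4 of 30 had an unadjusted p under 0.05.

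Across the probes, the partners fell into different places. Polr1c had r = 0.78, 0.85 and 0.81 with the 3 dimmer probes and 0.50 with the brightest (0.64, 0.78, 0.76 and 0.13 without the 2 farthest tumors), and Nhp2 had 0.76, 0.68 and 0.80 with the dimmer and 0.75 with the brightest (none of these passed the adjustment; without the 2 farthest tumors 0.41, 0.23, 0.48 and 0.35). Polr1a had 0.44 with the brightest probe and between 0.20 and 0.54 with the others, Polr1b between -0.53 and 0.07, and Ubtf between -0.13 and 0.05. Ncl had between -0.10 and 0.35, Npm1 between -0.55 and -0.25, and Rrp12 between -0.72 and -0.34. Without the 2 farthest tumors, values with the brightest probe were 0.60 for Polr1a, 0.63 for Polr1b, 0.41 for Ubtf, -0.30 for Ncl, -0.75 for Npm1 and 0.70 for Rrp12. With the dimmer probes Polr1a then had 0.07 to 0.63, Polr1b -0.36 to 0.44 and Ubtf 0.23 to 0.55. Ncl had -0.23 to 0.64, Npm1 -0.46 to -0.18 and Rrp12 -0.53 to 0.08. Myc had 0.34 with the brightest probe and 0.72, 0.66 and 0.74 with the dimmer ones, which became -0.45, 0.43, 0.33 and 0.44 without the 2 farthest tumors. With the dimmer probes Polr1c, Nob1, Bop1, Nhp2 and Rrp1b were among the higher values, and Rrp12 had the lowest. The catalytic subunit Polr1a had 0.26, 0.54 and 0.20 there, and Polr1b had -0.38, -0.01 and -0.53. The difference between these correlations was not tested.

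**Figure D4:**
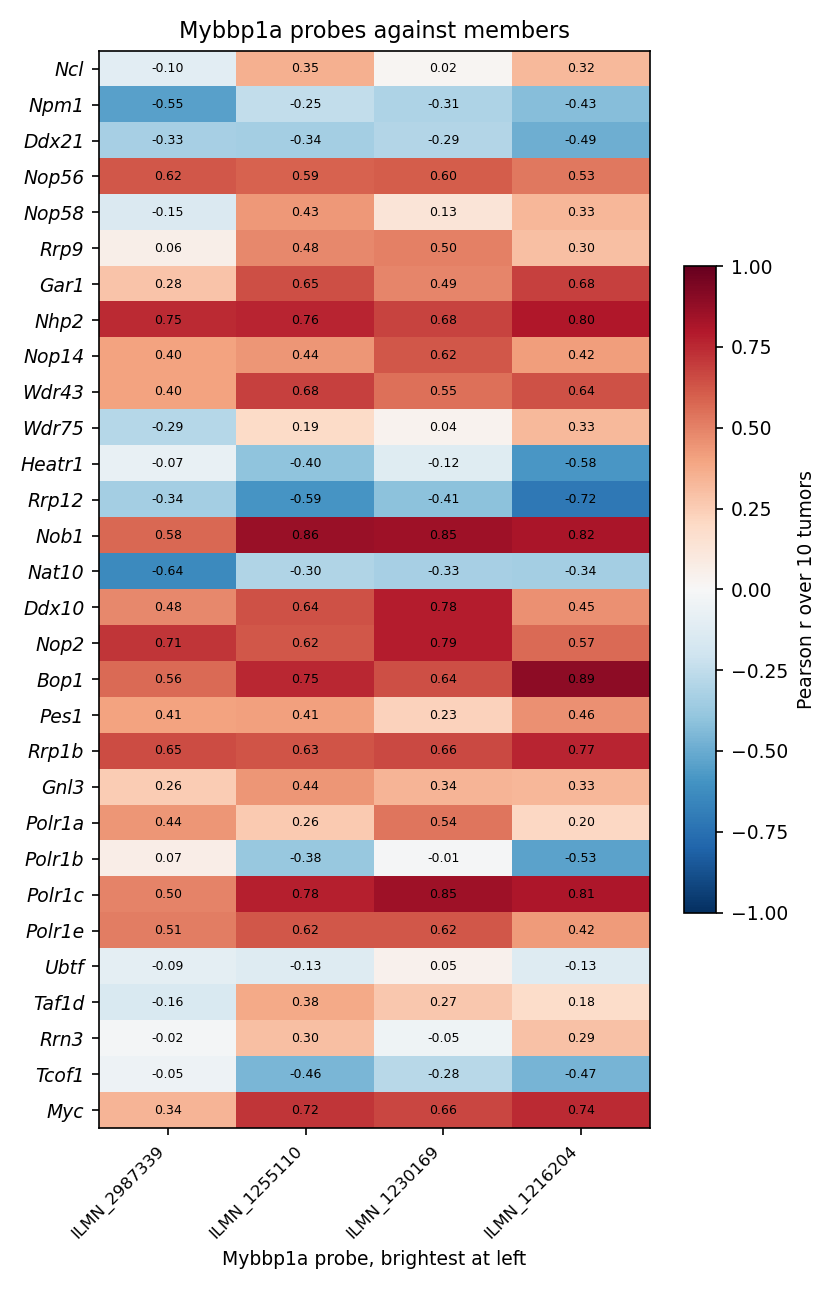
Pearson r over 10 tumors of each kept Mybbp1a probe (columns, brightest at left) with the brightest kept probe of each other member (rows, grouped by role). Red is positive and blue negative, and 2 of the 120 values passed the adjustment, Nob1 with ILMN_1255110 and Bop1 with ILMN_1216204.

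The probes most like each Mybbp1a probe were searched among 15811 kept probes of other named genes, as a description with no p. For ILMN_2987339 they were Atad5 (r = 0.97), Ifitm5 (r = 0.95) and Irgq (r = 0.95). Atad5, which unloads the replication clamp, spanned 7.07 to 7.98 over the tumors and read 6.70 and 6.53 in SCC-7 cells, below every tumor, where the Mybbp1a probe was highest. For ILMN_1255110 they were Nit1, Ppme1 and Amdhd2 (r = 0.96, 0.95 and 0.95), for ILMN_1230169 Zbtb3, Coil and Sfxn3 (r = 0.97, 0.96 and 0.96), and for ILMN_1216204 Kif1c, Flot2 and Armc9 (r = 0.97, 0.97 and 0.95). No gene appeared in more than 1 of these 4 lists. Coil encodes coilin, the scaffold of Cajal bodies, where snoRNPs mature. The annotated neighbours of Mybbp1a on chromosome 11, Ggt6 and Spns2, had 2 probes and 1 probe, and none was kept.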

How the data were processed

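Biotin-labelled cRNA made from total RNA was read on BeadChips of the WG-6 v2 design (Illumina). The authors deposited bead intensities without normalization, with detection p-values that were not used here, and a table of intensities normalized by a method not given in the sources used here, which served as an alternative. The intensities were background-corrected with normexp on 943 negative controls (robust, offset 16) and quantile-normalized on the log2 scale with limma 3.58.1 in R 4.3.3 (statmod 1.5.0), and detection was read against the negative controls at 0.01. The limma fits used the animal as a block for recurrent against primary tumors and all 12 arrays in 3 groups against SCC-7 cells. P-values were adjusted (Benjamini-Hochberg) over 18454 kept probes, with calls under 0.05. Same-numbered tumors were paired, as the series design and the methods give recurrences and their primaries from 5 animals. The match by number was read from the sample titles. Their deviations correlated by -0.37 to 0.36, and no recurrence was most like its same-numbered primary. Symbols matched a current gene for 34695 of 34773 single-symbol probes. Correlations used 100000 permutations in Python 3.11.15 (numpy 2.4.6, pandas 2.3.3, matplotlib 3.10.9). The fits and exact tests were tested on simulated data or known cases. The number of arrays limits the precision.

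The members and lists were chosen with earlier results of these data known. Genes were named by a rule: all Mybbp1a probes, the main nucleolar and polymerase genes, and the called or most changed genes of each comparison and list. No batch label was given.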

Additional observations from a re-analysis of the deposited data

Results flagged for a closer look

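In 5 of 68 groups of 5 tumors, 1 tumor lay far from the rest by Dixon's criterion, which chance meets in about 1 of 20 groups. Primary tumor 3 was the highest for Npm1 (13.31, next 12.57) and for Rrp12 (9.69, next 8.95). Primary tumor 4 was the lowest for Nat10 (5.14, next 5.55), and primary tumor 1 the lowest for Gnl3 (5.93, next 6.71). Recurrent tumor 2 was the lowest for Pes1 (7.12, next 7.79). Mybbp1a had no such tumor on any of its 4 kept probes.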

How the results depend on the processing

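The limits are the 2 SCC-7 arrays and the 5 pairs. Of 480 values recomputed, 385 kept their direction and their side of the threshold, and 5 changed direction. Against SCC-7 cells, median scaling left 2 members called higher (Nop58 and Taf1d) and 0 lower in recurrent tumors, and 0 in either direction in primary tumors. The authors' normalized intensities also gave 2 higher in recurrent tumors, and testing all probes without the filter gave 0 higher in primary tumors. Leaving out 1 array at a time gave 0 to 1 members higher and 0 to 6 lower for primary tumors, and 0 to 2 higher and 0 to 5 lower for recurrent tumors. The 0 values came from leaving out either SCC-7 array, and for Nop58 in primary tumors also from leaving out primary tumor 4 or 5. Without primary tumor 3 the members called were unchanged, with 1 higher and 4 lower. The cause of these changes was not tested.

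Between recurrent and primary tumors, 0 members were called under every alternative, including no replicate block and the methods' t-test. That t-test gave 3 of 31 members at an unadjusted p under 0.05, beside 423 of all 18454 kept probes, and 0 after adjustment. The animal as a random block against SCC-7 cells left 1 member higher and 4 lower in primary and 1 higher and 5 lower in recurrent tumors, and the pairing changed no other call. The Mybbp1a probe ILMN_2987339 gave -0.79 without pair 1, -0.41 without pair 3 and up to 1.17 without pair 5. ILMN_1230169 gave -0.0090 without pair 1 and up to 0.31 without pair 5. The difference between Mybbp1a probes was -0.87 without pair 1, -0.59 without pair 3 and up to 0.90 without pair 5 for recurrent minus primary tumors, and -2.07 to -1.67 for tumors minus SCC-7 cells. With median scaling, 1, 7, 8 and 5 members passed the correlation with ILMN_2987339, ILMN_1255110, ILMN_1230169 and ILMN_1216204, in place of 0, 1, 0 and 1. No share of all genes under this scaling is given here, so the rise is not read as a result about the members. The mean of the kept probes in place of the brightest lost the calls of Polr1a. It called Mybbp1a lower in primary tumors (-1.67, limma, adjusted p = 0.0291), Nob1 lower in both tumor groups and Ubtf lower in recurrent tumors. The Mybbp1a mean takes in the widely varying ILMN_2987339. The means of Polr1a and Nob1 take in ILMN_2620069 and ILMN_1237531, each detected only where it was high. The changes for Polr1a and Nob1 are therefore not read as support.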
